A study of Mus musculus with 6 samples.

Results

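Chemokine ligand genes encode small secreted or membrane-tethered proteins that attract leukocytes. They were chosen here by name, as the protein-coding genes of the count table whose symbol is Ccl, Cxcl, Xcl or Cx3cl followed by a number and at most 1 letter, with symbols taken from the GENCODE M21 annotation by Ensembl identifier. This gave 41 of the 34866 genes in the table, with 38 different symbols. Of the 41 genes, 36 lie on assembled chromosomes and 5 are copies of Ccl19, Ccl21a, Ccl21b and Ccl27 on separate scaffolds of the mouse genome build GRCm38. Another 3 protein-coding gene entries with such a name were not among the genes of the table used here. Cxcl11 was not a member, since the annotation calls it a polymorphic pseudogene.

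The study compared intestinal adenomas of Apc1322T/+ mice with those of ApcMin/+ mice, with 3 libraries per genotype. All mice were C57BL/6J and between 100 and 120 days old. Both alleles are germline and heterozygous, and both truncate Apc, the scaffold of the complex that marks β-catenin for destruction. ApcMin leaves a short product with essentially no function in this complex, whereas the longer product of Apc1322T keeps part of it. Adenomas were cut out whole, so that stroma, vessels and leukocytes were sequenced along with the tumour epithelium, and a library could pool RNA extractions of 1 mouse. In such bulk samples, fewer cells of a type and less RNA per cell cannot be told apart. The amount of Apc RNA does not check a truncating allele, so the genotypes rest on the labels.

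Chemokines bind receptors of the CCR, CXCR, XCR and CX3CR families on leukocytes and guide them along a gradient. Inflammatory chemokines are switched on by cytokines and by the transcription factor NF-κB, and they recruit neutrophils, monocytes and effector T cells. Homeostatic chemokines are made constitutively by stromal, endothelial or epithelial cells and place lymphocytes within tissues. The small intestine is known for Ccl25, which its epithelium makes to draw in Ccr9-bearing lymphocytes.

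Libraries held between 23132461 and 33518324 estimated counts. The smallest signal considered, 3 counts, corresponded to between 0.0838 and 0.143 CPM (counts scaled to 1000000 per library, with TMM normalisation), a limit that covers counting error only. ApcMin replicate 1 stood apart in its macrophage, fibroblast and neutrophil markers. Its 10 macrophage and monocyte marker genes summed to 537.7 CPM, against 156.7 to 249.2 CPM in the other 5 libraries. The sum of 5 fibroblast markers was 2393 CPM there and 450.0 to 1108 CPM elsewhere, and that of 9 neutrophil markers 180.0 CPM against 64.1 to 123.8 CPM. Its 5 general leukocyte markers summed to 165.3 CPM, against 67.0 to 94.9 CPM elsewhere. It was also highest, by less, for dendritic cell markers and for those of M cells and follicle epithelium. It was not the highest library in the sums of T cell, B cell, eosinophil, mast cell, smooth muscle, lymphatic or blood endothelial markers. Its blood endothelial sum of 253.9 CPM was close to the highest, 257.4 CPM in ApcMin replicate 3. Singly, 3 of the 5 blood and 2 of the 4 lymphatic endothelial markers were highest in ApcMin replicate 1, beside 15.2% of all genes tested. The 8 intestinal epithelial markers, at 10126 to 16377 CPM in every library, summed to 12878 to 16377 CPM in Apc1322T and to 10126 to 12395 CPM in ApcMin, and 6 of them were lower in ApcMin at an unadjusted p under 0.05, beside 7.6% of all genes. Without ApcMin replicate 1 there were 3, beside 4.97%. Because of this library, the main results are also given without it.

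Promoter sequences are shown first for the CXC ligands of chromosome 5 from Cxcl5 to Cxcl10, because all 6 tested members of this stretch had their highest level in that 1 library. RefSeq promoters were matched for 26 of the 41 members. Cxcl5 was among those without a matched promoter, as were Ccl2, Ccl5, Ccl7 and Ccl11, so these were not searched. The letters GGNNNTTCC, a short form of the κB motif bound by NF-κB, were searched on both strands of the 300 bases around each start. They occurred in 13 of 32 member promoters, as some genes have several starts, and in 18.5% of all 32851 promoters. Only 5 member promoters held 2 such matches, against 2.16% of all promoters, and these were Cxcl1, Cxcl2, Cxcl3, Cxcl9 and Cxcl10. The 160 bases before the start of each are given 5′ to 3′ on the strand of the gene, in build GRCm38.p6 from RefSeq, with the matches in capitals.
Cxcl1 (chr5:90891085-90891244, plus strand): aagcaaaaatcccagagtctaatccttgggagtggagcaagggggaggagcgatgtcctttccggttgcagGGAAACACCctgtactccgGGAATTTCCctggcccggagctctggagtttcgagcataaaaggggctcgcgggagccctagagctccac
Cxcl2 (chr5:90903739-90903898, plus strand): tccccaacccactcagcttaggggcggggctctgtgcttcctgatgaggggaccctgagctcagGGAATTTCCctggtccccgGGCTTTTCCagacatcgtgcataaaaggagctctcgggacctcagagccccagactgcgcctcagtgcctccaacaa
Cxcl3 (chr5:90785941-90786100, plus strand): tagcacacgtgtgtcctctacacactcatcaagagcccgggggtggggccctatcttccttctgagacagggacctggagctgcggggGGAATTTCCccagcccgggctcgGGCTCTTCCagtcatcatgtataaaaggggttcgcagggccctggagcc
Cxcl9 (chr5:92328080-92328239, minus strand): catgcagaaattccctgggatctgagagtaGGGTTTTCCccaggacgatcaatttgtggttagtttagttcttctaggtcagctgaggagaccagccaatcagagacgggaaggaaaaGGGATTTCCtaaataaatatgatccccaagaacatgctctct
Cxcl10 (chr5:92348890-92349049, minus strand): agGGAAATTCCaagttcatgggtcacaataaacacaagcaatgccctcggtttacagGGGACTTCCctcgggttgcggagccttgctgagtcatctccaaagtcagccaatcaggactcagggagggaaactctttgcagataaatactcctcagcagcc
In Cxcl1, Cxcl2 and Cxcl3 the matches began between 49 and 96 bases before the start, and all 3 promoters held the same 9 letters, GGAATTTCC. In Cxcl9 the matches began 130 and 42 bases before the start, and in Cxcl10 158 and 103 bases. Cxcl9 and Cxcl10 also held the letters GAAANNGAA, part of the element through which interferons act, further from the start than the bases shown. These letters were found in 6 member promoters and in 8.56% of all promoters. The letters CTTTGA, a core of the motif of the Wnt effector TCF, were in 6 of the 32 member promoters and in 16.0% of all. A match is a description of these letters and not of binding.

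RNA of most members was detected in these adenomas. In every library, 33 of the 41 members reached 3 counts, 5 did so in some libraries, and 3 (Ccl26, Ccl27b and the scaffold copy of Ccl19, ENSMUSG00000094661) were listed at 0 throughout. The number detected per library was between 35 and 37. The filter on low counts passed 33 members, and these 33 are called the tested members. They are not the same 33 genes, as Xcl1 reached 3 counts everywhere but was removed, and a scaffold copy of Ccl27 (ENSMUSG00000093828) with 2 counts in 1 library was kept. Beside the 3 listed at 0, it removed Ccl1, Ccl19, Cxcl15, Xcl1 and the scaffold copy of Ccl21b (ENSMUSG00000096271).

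Per length, the strongest members were Cxcl14, Cxcl16, Ccl6, Cx3cl1 and Ccl25. Levels of different genes are compared as CPM per kb of merged exons, as mean ± SD over all 6 libraries. Cxcl14, a mucosal and skin chemokine (chr13:56288643-56296551), came first at 25.7 ± 12.5. Cxcl16, made as a membrane protein that binds Cxcr6 (chr11:70453983-70459984), was at 22.3 ± 3.94. Ccl6, a ligand of Ccr1, was at 21.9 ± 9.25, Cx3cl1 at 18.8 ± 5.42 and Ccl25 at 17.7 ± 8.05. Each of these 5 differed from the next in this order by less than the SD of either over libraries.
The next were the eotaxin Ccl11 at 14.4 ± 8.95, Ccl9 at 10.6 ± 3.82 and Ccl5 at 10.5 ± 6.96. Ccl2 at 9.41 ± 9.30, Cxcl1 at 9.01 ± 8.36, Cxcl2 at 6.40 ± 6.51 and Cxcl5 at 6.21 ± 4.05 closed the first 12, with an SD close to or above the mean for the first 3 of these. Together the 12 made up 74.8% to 86.4% of the family's summed level per kb, depending on the library.
The same 12 genes led when the longest transcript replaced the merged exons, but Ccl25, whose merged exons (7445 bases) are much longer than its longest transcript (2549 bases), then moved from rank 5 to rank 1. At the other end, Cxcl13 was at 0.754 ± 0.602 and Ccl19 at 0.104 ± 0.124 CPM per kb.

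**Figure D1:**
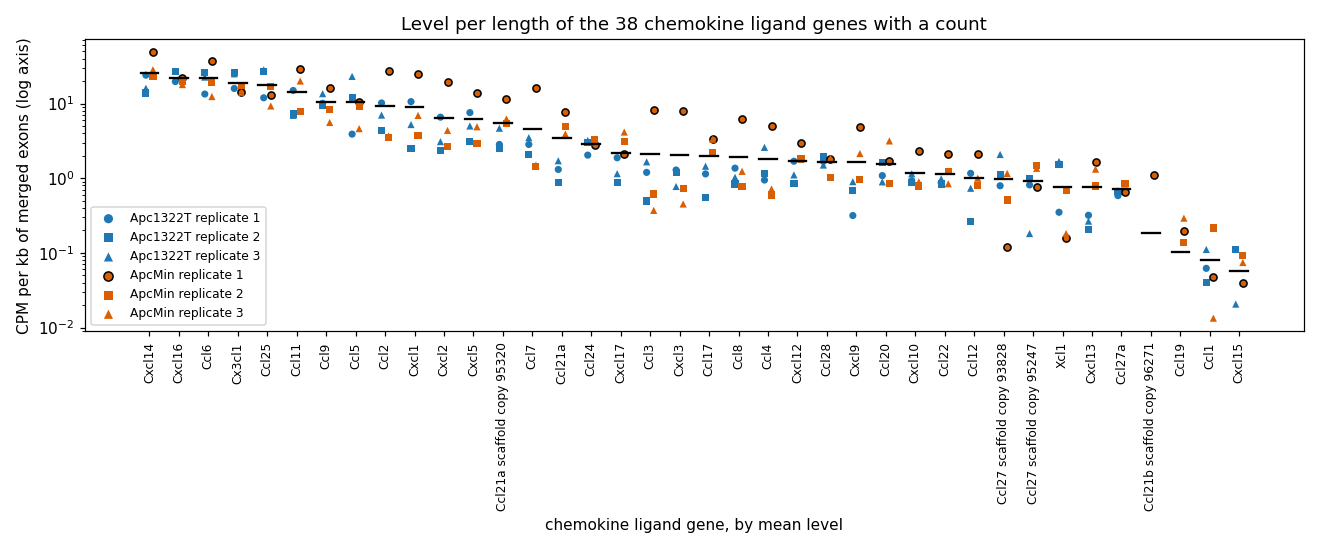
Level per length (CPM per kb of merged exons, log axis) of the 38 chemokine ligand genes with a count, ordered by the mean over 6 libraries (bars); each point is a library, blue for Apc1322T and orange for ApcMin, and values of 0 are not drawn. Cxcl14 leads at 25.7 by this mean over both genotypes, and the black-edged points of ApcMin replicate 1 lie at the top of most inflammatory ligands.

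Between the genotypes, no chemokine ligand was called at an adjusted p under 0.01. With edgeR's quasi-likelihood test the count was 0 of 33 tested members, beside 0.0% of the 16536 genes tested, and the smallest adjusted p of a member was 0.257. At an unadjusted p under 0.05 stood 9 members (27.3%), beside 15.1% of all genes. Of these, 8 were higher in ApcMin (7.49% of all genes were) and 1 was lower (7.6% of all genes). The 8 count both Ccl21a and its scaffold copy, which share reads. Without ApcMin replicate 1, 4 members were higher at this level, beside 6.78% of all genes, and 3 were lower, beside 4.97%. The 3 libraries of one genotype all lay above those of the other for 7 members (21.2%), beside 21.0% of all genes. All 7 were higher in ApcMin, where 11.0% of all genes were, and 0 were lower, beside 9.96% of all genes. With 3 libraries against 3, a permutation test cannot go below p = 0.10.
DESeq2's Wald test called 1 of the 32 members it gave an adjusted p, Ccl21a, at a threshold of 0.01, beside 1.11% of all genes. At 0.05 it called 3, Ccl21a, Cxcl13 and Cxcl9, beside 2.7% of all genes.

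The median log2 fold change of the tested members was 0.83, beside 0.017 over all genes tested, with 26 members higher in ApcMin and 7 lower. This shift rested on 1 library. Without ApcMin replicate 1 the median was -0.19, with 15 members higher and 18 lower, and 11 members changed direction. ApcMin replicate 1 held the highest level of all 6 libraries for 21 of the 33 members (63.6%), but for 15.2% of all genes tested. On the log2 scale it exceeded the mean of ApcMin replicates 2 and 3 by more than 1 in 16 members (48.5%), beside 3.92% of all genes. The median SD of log2 CPM within a genotype was 0.67 over the members and 0.22 over all genes, and 0.43 over the members without ApcMin replicate 1.

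**Figure D2:**
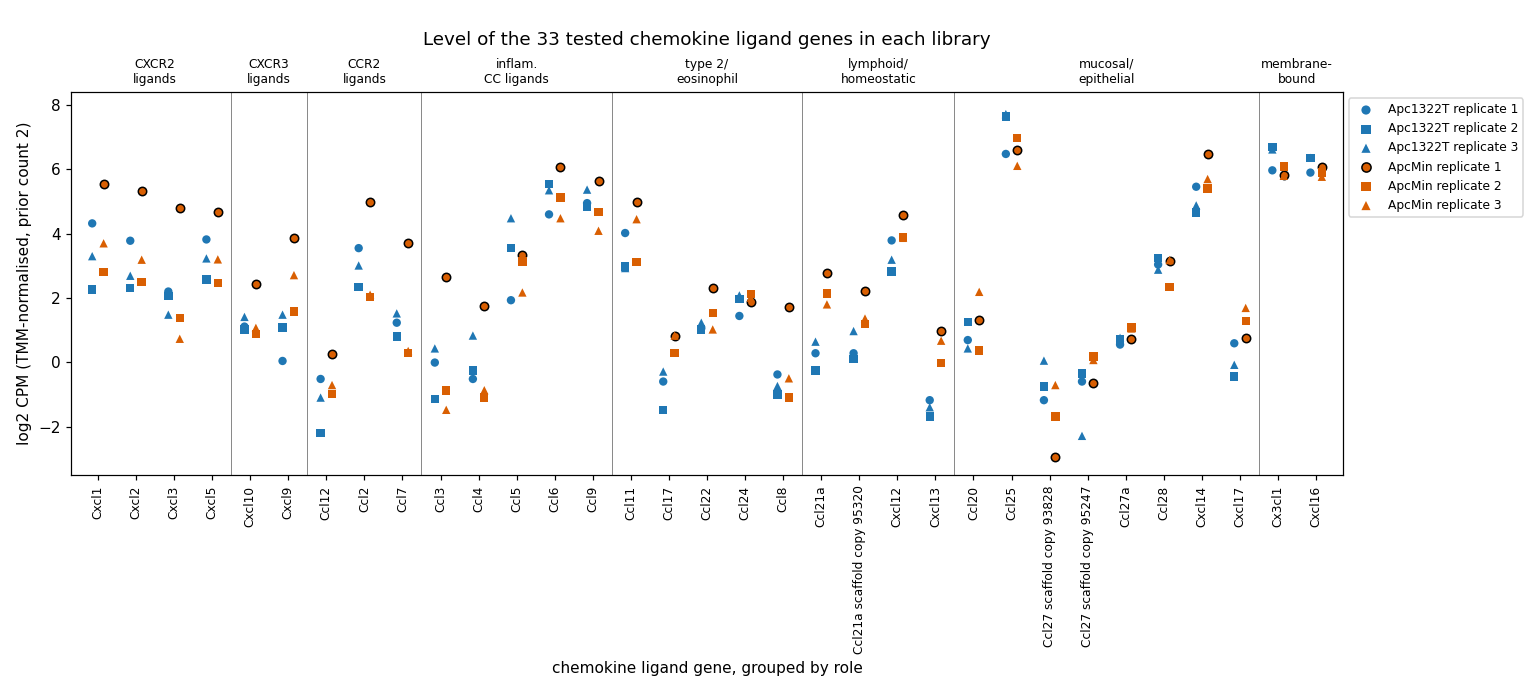
Level in log2 CPM (prior count 2) of the 33 tested chemokine ligand genes in each library, grouped by role; blue points are Apc1322T and orange points ApcMin libraries, and the black edge marks ApcMin replicate 1. That library has the highest level for 21 of the 33 genes, while the 3 orange points of Cxcl13 and Ccl21a all lie above the 3 blue points.

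The neutrophil-attracting ligands of Cxcr2 (Cxcl1, Cxcl2, Cxcl3 and Cxcl5) were spread widely within ApcMin. Cxcl1 (chr5:90891241-90893115) was at 19.9, 4.70 and 9.81 CPM in Apc1322T replicates 1 to 3 and at 47.0, 6.92 and 13.0 CPM in ApcMin replicates 1 to 3. Cxcl2, which lies beside it, was at 13.6, 4.89 and 6.39 CPM in Apc1322T and at 39.9, 5.54 and 9.04 CPM in ApcMin. For both, ApcMin replicate 1 was the highest library, Apc1322T replicate 1 the next, and the remaining libraries of the genotypes overlapped.
Cxcl3 stood out further, at 4.51, 4.13 and 2.71 CPM in Apc1322T and 27.7, 2.52 and 1.58 CPM in ApcMin, so that 1 ApcMin library lay above and the other two below every Apc1322T library. Cxcl5 was at 14.1, 5.85 and 9.33 CPM in Apc1322T and 25.6, 5.46 and 9.10 CPM in ApcMin. The log2 fold changes of these 4 genes were 0.46 to 1.49, with the largest for Cxcl3 (1.49, SE 1.08, edgeR adjusted p = 0.520). Without ApcMin replicate 1 all 4 turned, to between -0.89 and -0.19.
Cxcl15, a lung chemokine of the same chromosomal stretch, had at most 5 counts in a library. Cxcr2, the receptor found on neutrophils, was at 4.22, 1.62 and 2.50 CPM in Apc1322T and 9.08, 2.83 and 3.00 CPM in ApcMin, with the same 2 libraries highest as for Cxcl1 and Cxcl2. The 9 neutrophil markers summed to 123.8, 71.6 and 76.7 CPM in Apc1322T and 180.0, 64.1 and 89.7 CPM in ApcMin, largely through Ltf. Of the 7 tested, 5 were highest in ApcMin replicate 1, such as S100a9 (43.4 CPM), while Ltf and Ly6g were highest in Apc1322T libraries. The part of neutrophil content in the ligand levels was not tested.

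Cxcl9 and Cxcl10 are induced by interferon-γ and attract Cxcr3-bearing T cells. Cxcl9 (chr5:92321347-92328079) was at 0.954, 2.04 and 2.71 CPM in Apc1322T and at 14.7, 2.91 and 6.45 CPM in ApcMin. The genotypes did not overlap, although ApcMin replicate 2 lay only just above Apc1322T replicate 3. Its log2 fold change was 2.08 (SE 0.67, unadjusted p = 0.0190, edgeR adjusted p = 0.287), and without ApcMin replicate 1 it was 1.30 (unadjusted p = 0.0546).
Cxcl10, its neighbour, was at 2.09, 1.95 and 2.58 CPM in Apc1322T and 5.28, 1.77 and 2.02 CPM in ApcMin, where the other two ApcMin libraries lay within or below the Apc1322T range. Cxcr3 followed another order, with 0.0367, 0.333 and 1.18 CPM in Apc1322T and 0.531, 0.432 and 0.126 CPM in ApcMin. The 8 T cell markers summed to 18.4 to 47.3 CPM in Apc1322T and 21.4 to 29.2 CPM in ApcMin. Ifng, which encodes interferon-γ, had at most 2 counts in any library.

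Ccl2, Ccl7 and Ccl12 recruit monocytes through Ccr2 and lie within the chromosome 11 cluster, where 9 of 10 tested members were highest in ApcMin replicate 1. Ccl2 (chr11:82035571-82037453) was at 11.6, 4.99 and 7.97 CPM in Apc1322T and at 31.5, 4.01 and 4.20 CPM in ApcMin. Ccl7 was at 2.27, 1.66 and 2.80 CPM in Apc1322T and at 12.9, 1.14 and 1.20 CPM in ApcMin. Both genes were thus highest in 1 ApcMin library and lowest in the other two.
Over all libraries the log2 fold changes were 0.69 (SE 0.87) for Ccl2 and 1.18 (SE 0.99) for Ccl7. Without ApcMin replicate 1 they were -1.0 (unadjusted p = 0.0403) and -0.94 (unadjusted p = 0.0373). Ccl12, with 3 to 40 counts, had a log2 fold change of 0.83 (SE 0.62). Ccr2 itself was at 2.04 to 2.89 CPM in Apc1322T and at 9.61, 2.20 and 1.74 CPM in ApcMin. The macrophage marker Lyz2 had the same outlying library, at 48.5, 57.3 and 57.8 CPM in Apc1322T and 260.2, 50.4 and 68.0 CPM in ApcMin, and all 10 macrophage and monocyte markers were highest there. Of the 10, 7 were higher in ApcMin at an unadjusted p under 0.05, beside 7.49% of all genes, and 0 without ApcMin replicate 1, beside 6.78%. The median log2 fold change of these markers was 0.76, and it stayed positive at 0.41 without that library. Their part in the ligand levels was not tested.

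The inflammatory CC ligands, several of which act on Ccr1, split into strongly and weakly expressed genes. Ccl3 and Ccl4, made by activated macrophages and T cells, were low. Ccl3, with the largest SD within a genotype of all tested members (1.68 on the log2 scale), was at 0.917, 0.380 and 1.27 CPM in Apc1322T and 6.26, 0.472 and 0.284 CPM in ApcMin. Ccl4 was at 0.624 to 1.71 CPM in Apc1322T and at 3.27, 0.393 and 0.474 CPM in ApcMin.
Ccl6 and Ccl9, adjacent genes known from macrophages and Ccr1 binding, were among the strongest members. Ccl6 was at 24.1, 46.6 and 40.6 CPM in Apc1322T and 67.3, 34.9 and 22.3 CPM in ApcMin. Ccl9 was at 30.7, 28.6 and 41.3 CPM in Apc1322T and 49.6, 25.6 and 17.0 CPM in ApcMin. Their log2 fold changes of 0.16 and -0.12, with an interval of plus or minus 2 SE from -0.72 to 1.05 and from -0.91 to 0.66, leave room for a change in either direction. Without ApcMin replicate 1, the log2 fold change of Ccl9 was -0.66 (unadjusted p = 0.0391).
Ccl5, a product of T and NK cells, differed from its group, since its highest library was Apc1322T replicate 3. It was at 3.74, 11.6 and 22.2 CPM in Apc1322T and 10, 8.69 and 4.43 CPM in ApcMin, with a log2 fold change of -0.70 (SE 0.64, edgeR adjusted p = 0.607). The 8 T cell markers summed to 18.4, 37.8 and 47.3 CPM in Apc1322T and 29.2, 27.2 and 21.4 CPM in ApcMin, the same order of libraries within each genotype. Singly, 6 of the 8 had the order of Ccl5 in Apc1322T, 3 had it in ApcMin and 2 in both. The part of T cells in the Ccl5 level was not tested. Ccr1 was at 6.05, 3.99 and 5.43 CPM in Apc1322T and 15.4, 5.86 and 7.52 CPM in ApcMin.

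Among the ligands tied to type 2 responses, only Ccl17 separated the genotypes without overlap. Ccl17, a dendritic cell product that draws in Ccr4-bearing T cells (chr8:94810453-94812036), was at 0.587, 0.285 and 0.744 CPM in Apc1322T and at 1.70, 1.14 and 1.71 CPM in ApcMin, with 6 to 61 counts per library. The log2 fold change was 1.48 (SE 0.43, unadjusted p = 0.0113, edgeR adjusted p = 0.279). It was 1.39 without ApcMin replicate 1 (unadjusted p = 0.0351).
Its neighbour Ccl22, the other Ccr4 ligand, was at 1.95 to 2.28 CPM in Apc1322T and at 4.86, 2.83 and 1.96 CPM in ApcMin, and the genotypes overlapped. Ccr4 had 1 to 8 counts and was not tested. The 5 dendritic cell markers summed to 10.4 to 15 CPM in Apc1322T and 13.8 to 17.8 CPM in ApcMin.
The eotaxin Ccl11, which attracts eosinophils and is made by fibroblasts, was at 16.2, 7.84 and 7.53 CPM in Apc1322T and at 31.6, 8.57 and 21.7 CPM in ApcMin (log2 fold change 0.97, SE 0.53, edgeR adjusted p = 0.412). Ccl24 was even across libraries, at 2.64 to 4.16 CPM in Apc1322T and 3.58 to 4.29 CPM in ApcMin. Their receptor Ccr3 had at most 12 counts, and the 3 eosinophil markers summed to 1.61 to 4.33 CPM in Apc1322T and 3.00 to 8.53 CPM in ApcMin. Epx was at 0 in 5 of 6 libraries, while Siglecf and Prg2 were detected in all. Ccl8, a ligand of Ccr8 in the mouse, was at 3.21 CPM in ApcMin replicate 1 and at 0.393 to 0.697 CPM in the others.

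Among the lymphoid and homeostatic ligands, all 4 tested members were higher in ApcMin without overlap, as were 11.0% of all genes, but these 4 stand for 3 genes, since Ccl21a and its scaffold copy share reads. Cxcl13, the ligand of Cxcr5 that gathers B cells into follicles (chr5:95956951-95961068), was at 0.367, 0.238 and 0.306 CPM in Apc1322T and at 1.87, 0.904 and 1.52 CPM in ApcMin. The underlying counts were 10, 5 and 7 against 67, 23 and 48. The log2 fold change was the largest of all tested members, at 2.22 (SE 0.42, unadjusted p = 0.00137, edgeR adjusted p = 0.257; DESeq2 adjusted p = 0.0131). Without ApcMin replicate 1 it was 1.97 (unadjusted p = 0.00604).
Ccl21a, the lymphatic and stromal ligand of Ccr7 (chr4:42772860-42773993), was at 1.14, 0.760 and 1.49 CPM in Apc1322T and at 6.81, 4.32 and 3.41 CPM in ApcMin. The log2 fold change was 2.10 (SE 0.38, unadjusted p = 0.00103, edgeR adjusted p = 0.257, DESeq2 adjusted p = 0.000248), and 1.77 (unadjusted p = 0.00298) without ApcMin replicate 1.
Ccl21a shares reads with near-identical copies, whose counts depend on how Salmon divided them. The scaffold copy of Ccl21a (ENSMUSG00000095320) was at 1.14, 0.998 and 1.88 CPM in Apc1322T and 4.58, 2.20 and 2.50 CPM in ApcMin, a log2 fold change of 1.21 (SE 0.41, unadjusted p = 0.0222). The scaffold copy of Ccl21b had 34 counts in ApcMin replicate 1 and 0 in the other 5 libraries. In an analysis added after the data were seen, the 3 copies together had 62, 37 and 77 counts in Apc1322T and 442, 166 and 187 in ApcMin. Their log2 fold change was 1.74 (SE 0.38, unadjusted p = 0.00293, edgeR adjusted p = 0.257).
Ccl19, the other Ccr7 ligand, was at 0 counts in all Apc1322T libraries and at 6, 3 and 8 counts in ApcMin. Set against 3 counts over the 3 Apc1322T libraries together, it was 4.34-fold higher in ApcMin. This allows for counting error in Apc1322T only, and not for that of the 17 ApcMin counts or for the spread between libraries. Cxcl12, a stromal ligand of Cxcr4 (chr6:117168535-117181367), was at 13.8, 6.99 and 9.06 CPM in Apc1322T and 24.1, 14.9 and 14.6 CPM in ApcMin. Its log2 fold change was 0.84 (SE 0.31, unadjusted p = 0.0328, edgeR adjusted p = 0.311), and 0.56 (unadjusted p = 0.107) without ApcMin replicate 1.
On the receptor side, Ccr7 was also higher in ApcMin without overlap, at 1.43, 0.475 and 1.05 CPM in Apc1322T and 2.09, 2.75 and 1.61 CPM in ApcMin (log2 fold change 1.11, SE 0.45, unadjusted p = 0.0438, edgeR adjusted p = 0.321). Cxcr5 had 0 to 16 counts and was not tested, and Cxcr4 overlapped, at 11.0 to 16.2 CPM in Apc1322T and 8.92 to 20.2 CPM in ApcMin. Summed over 7 genes, B cell markers were at 5.21 to 7.15 CPM in Apc1322T and 8.49 to 13.8 CPM in ApcMin. Pax5 was at 0 in 2 Apc1322T libraries, and the 2 B cell markers tested, Cd79a and Cd79b, overlapped. The 5 markers of M cells and follicle epithelium summed to 44.1 to 48.2 CPM in Apc1322T and 43.2 to 68.1 CPM in ApcMin. Of the 4 tested, 1 did not overlap, the M cell receptor Gp2, at 0.220, 0.238 and 0.350 CPM in Apc1322T and 6.93, 1.18 and 4.43 CPM in ApcMin (log2 fold change 3.94, edgeR adjusted p = 0.257, DESeq2 adjusted p = 1.52e-05).
The 4 lymphatic endothelial markers summed to 151.2 to 196.9 CPM in Apc1322T and 185.6 to 268.1 CPM in ApcMin, mostly Prox1, which intestinal epithelium also expresses, and Lyve1 did not overlap while Prox1, Flt4 and Pdpn did. The 5 fibroblast markers summed to 450.0 to 1108 CPM in Apc1322T and 699.4 to 2393 CPM in ApcMin. Pdgfra and Lum did not overlap, and Col1a1, Col1a2 and Dcn did. The median log2 fold change of the 5 was 1.0, and 0.34 without ApcMin replicate 1. Whether a different share of such cells sets the ligand levels was not tested.

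**Figure D3:**
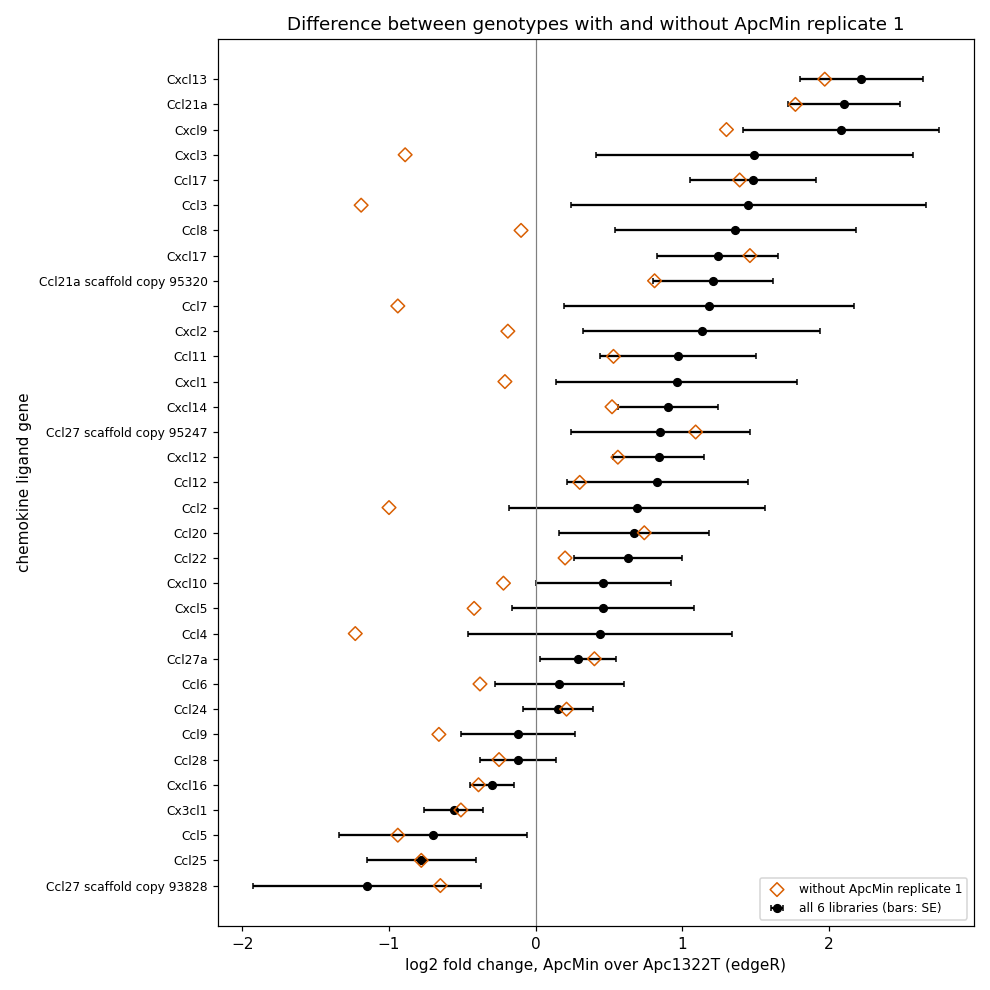
Log2 fold change of each tested chemokine ligand gene, ApcMin over Apc1322T, from edgeR with all 6 libraries (black points, bars of 1 SE) and without ApcMin replicate 1 (open orange diamonds). Cxcl13 stays at 1.97 and Ccl21a at 1.77 without that library, whereas Cxcl3, Ccl3, Ccl7 and Ccl2 move from above to below 0.

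The ligands of mucosal epithelium stood on both sides of 0, with 5 of 8 tested members higher in ApcMin and 3 lower. Cxcl14 came first per kb of merged exons over all 6 libraries, but not in Apc1322T alone. Its mean share of the family's summed level per kb was 9.48% in Apc1322T, where Cxcl16 had 12.7%, and 14.4% in ApcMin. Cxcl14 was at 43.9, 25.3 and 29.3 CPM in Apc1322T and at 89.2, 42.5 and 51.9 CPM in ApcMin. Its lowest ApcMin library lay just below Apc1322T replicate 1, so the genotypes overlapped. The log2 fold change was 0.90 (SE 0.34, unadjusted p = 0.0357, edgeR adjusted p = 0.312), and 0.52 (unadjusted p = 0.0914) without ApcMin replicate 1. Cxcl17, a mucosal chemokine (chr7:25400053-25412886), did not overlap, at 1.43, 0.665 and 0.876 CPM in Apc1322T and 1.59, 2.36 and 3.16 CPM in ApcMin. It differed from most members in that ApcMin replicate 1 was the lowest of its genotype. Its log2 fold change was 1.24 (SE 0.41, unadjusted p = 0.0205, edgeR adjusted p = 0.288), and 1.46 (unadjusted p = 0.0130) without that library.
Both genes are also known from stratified epithelia. The 5 squamous markers summed to 6.16 to 8.67 CPM in Apc1322T and 33.6 to 45.6 CPM in ApcMin, and 3 of the 4 tested did not overlap, such as Krt14 at 3.15 to 4.73 CPM against 21.2 to 22.2 CPM. The part of such cells in Cxcl14 and Cxcl17 was not tested.
Ccl25 (chr8:4325210-4360020), which reads highest when levels are not divided by length, was at 89.0, 199.9 and 211.1 CPM in Apc1322T and at 96.5, 125.8 and 69.1 CPM in ApcMin. The upper 2 Apc1322T libraries stood above all ApcMin libraries, and Apc1322T replicate 1 fell among them. The log2 fold change was -0.78 (SE 0.37, unadjusted p = 0.0805, edgeR adjusted p = 0.372), the same without ApcMin replicate 1. Its share of the family's summed level per kb was 11.4% ± 4.08 (SD, n = 3) in Apc1322T and 6.25% ± 3.32 (SD, n = 3) in ApcMin. With the longest transcript in place of merged exons, a choice added after the data were seen, the shares were 24.7% ± 7.33 (SD, n = 3) and 14.8% ± 6.83 (SD, n = 3). Its receptor Ccr9 was at 2.38 to 3.98 CPM in Apc1322T and 2.85 to 4.20 CPM in ApcMin.
The sum of the 8 epithelial markers had the same order of libraries as Ccl25 within each genotype. Singly, 4 of the 8 had it in both genotypes (Cdx1, Cdx2, Vil1 and Cdh1), with 6 in Apc1322T and 6 in ApcMin taken alone. Markers of position along the small intestine also differed between libraries. The 5 proximal markers summed to 1997 to 2801 CPM in Apc1322T and 1210 to 2375 CPM in ApcMin, and the 4 distal ones to 49.2 to 127.8 CPM against 15.2 to 374.4 CPM. Among these the ileal gene Fabp6 was at 0.477 to 0.618 CPM in Apc1322T and at 127.4, 82.8 and 0.980 CPM in ApcMin, and the enterocyte gene Fabp1 at 764.4 to 1422 CPM against 280.4 to 774.8 CPM. The part of position in the Ccl25 level was not tested.
Ccl28, a ligand of Ccr10 that draws in IgA plasma cells, was at 7.27 to 9.46 CPM in Apc1322T and 4.99 to 8.98 CPM in ApcMin, with a log2 fold change of -0.12 and an interval of plus or minus 2 SE from -0.64 to 0.39. Ccl20, made by the epithelium over lymphoid follicles, was at 1.27 to 2.33 CPM in Apc1322T and at 2.43, 1.22 and 4.49 CPM in ApcMin. Its receptor Ccr6 had at most 7 counts.
Ccl27a, a skin chemokine, was at 1.39 to 1.62 CPM in Apc1322T and 1.56 to 2.04 CPM in ApcMin. Its scaffold copies ENSMUSG00000093828 and ENSMUSG00000095247, which share its reads, had 2 to 31 counts and log2 fold changes of -1.15 and 0.85. Summed to 1 gene, a choice made after the data were seen, the Ccl27 copies had 59 to 64 counts in Apc1322T and 78 to 111 in ApcMin, with a log2 fold change of 0.20 (SE 0.27).

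Both membrane-bound ligands had a negative log2 fold change, and only Cx3cl1 was so at an unadjusted p under 0.05. Cx3cl1 (chr8:94772009-94782427), which tethers and attracts Cx3cr1-bearing monocytes and macrophages, was at 62.6, 103.2 and 98.4 CPM in Apc1322T and at 56.3, 67.9 and 55.6 CPM in ApcMin. Apc1322T replicate 1 lay within the ApcMin range. Its log2 fold change was -0.56 (SE 0.20, unadjusted p = 0.0296, edgeR adjusted p = 0.308), and -0.51 (unadjusted p = 0.0840) without ApcMin replicate 1. Cxcl16 was at 59.6, 81.7 and 82.0 CPM in Apc1322T and at 67.1, 59.5 and 54.3 CPM in ApcMin, with a log2 fold change of -0.30 (SE 0.15, edgeR adjusted p = 0.378).
Apc1322T replicate 1 was thus the lowest of its genotype for Ccl25, Cx3cl1 and Cxcl16, as it was for the epithelial marker sum (12878 CPM, against 15932 and 16377 CPM). The same held for Ccl5 (3.74 CPM), Ccl6 (24.1 CPM) and the T cell marker sum (18.4 CPM). It was the highest of its genotype for 12 tested members (36.4%), beside 40.8% of all genes. The part of epithelial content in these ligand levels was not tested. The receptor Cx3cr1 had a positive log2 fold change, with 7.01 to 8.51 CPM in Apc1322T and 8.53 to 12 CPM in ApcMin and a very small gap between the genotypes (log2 fold change 0.34, SE 0.18, unadjusted p = 0.112). Cxcr6 was at 0.880, 0.523 and 2.32 CPM in Apc1322T and at 4.22, 0.865 and 0.664 CPM in ApcMin.

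The remaining members were near the limit of detection. Xcl1, a product of NK and CD8 T cells, had 5, 17 and 20 counts in Apc1322T and 3, 9 and 3 in ApcMin. Ccl1 had 1 to 13 counts. Of the platelet chemokines that the naming rule left out, Pf4 was at 2.00 to 4.77 CPM in Apc1322T and 2.44 to 8.80 CPM in ApcMin, and Ppbp at 0.394 to 1.58 CPM against 1.34 to 2.09 CPM.

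Chemokine receptors, in the same fit, had 0 of 12 tested genes (of 18 listed) past the threshold, beside 0.0% of all genes, and a median log2 fold change of 0.62, which was 0.12 without ApcMin replicate 1. Only Ccr7 was at an unadjusted p under 0.05. The 5 listed atypical receptors, some of which bind chemokines without the usual signal and remove them, were all tested. Their median log2 fold change was 0.89, and 0.72 without ApcMin replicate 1. Ackr3, which binds Cxcl12, was at 6.82, 4.56 and 6.09 CPM in Apc1322T and 11.1, 10.3 and 16.4 CPM in ApcMin, without overlap (log2 fold change 1.11, SE 0.25, unadjusted p = 0.00303, edgeR adjusted p = 0.257, DESeq2 adjusted p = 0.00721). It was 1.19 without ApcMin replicate 1. Ackr2, a scavenger of inflammatory CC ligands, did not overlap either, although Apc1322T replicate 1 and ApcMin replicate 1 were level at 1.28 CPM, and it reached 0.788 CPM or less in the other Apc1322T and 1.77 CPM or more in the other ApcMin libraries (log2 fold change 0.89, SE 0.38, unadjusted p = 0.0505).
Of 15 cytokines known to induce chemokines, 7 were tested and 0 were at an unadjusted p under 0.05. Their median log2 fold change was 0.52, and -0.52 without ApcMin replicate 1. In that reduced edgeR fit 1 was lower at this level, Il1b (log2 fold change -0.66, unadjusted p = 0.0187), beside 4.97% of all genes. Il1b was at 14.1, 11.4 and 14.9 CPM in Apc1322T and 94.4, 7.35 and 9.67 CPM in ApcMin. Il6 was at 7.78, 1.95 and 1.97 CPM in Apc1322T and 30.6, 1.69 and 2.75 CPM in ApcMin. Both peaked in ApcMin replicate 1, as did Cxcl1, Cxcl2 and Cxcl3. Of the 7 tested cytokines 5 peaked there, beside 15.2% of all genes tested. That library was also highest for the macrophage and neutrophil marker sums. The part of these cytokines in the ligand levels was not tested. The 12 NF-κB and STAT genes had a median log2 fold change of -0.19, between -0.77 and 0.08, with 0 at an unadjusted p under 0.05. Without ApcMin replicate 1 the median was -0.26. In that edgeR fit 1 was lower at this level, Nfkbiz (log2 fold change -0.72, unadjusted p = 0.00273), beside 4.97% of all genes.

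**Figure D4:**
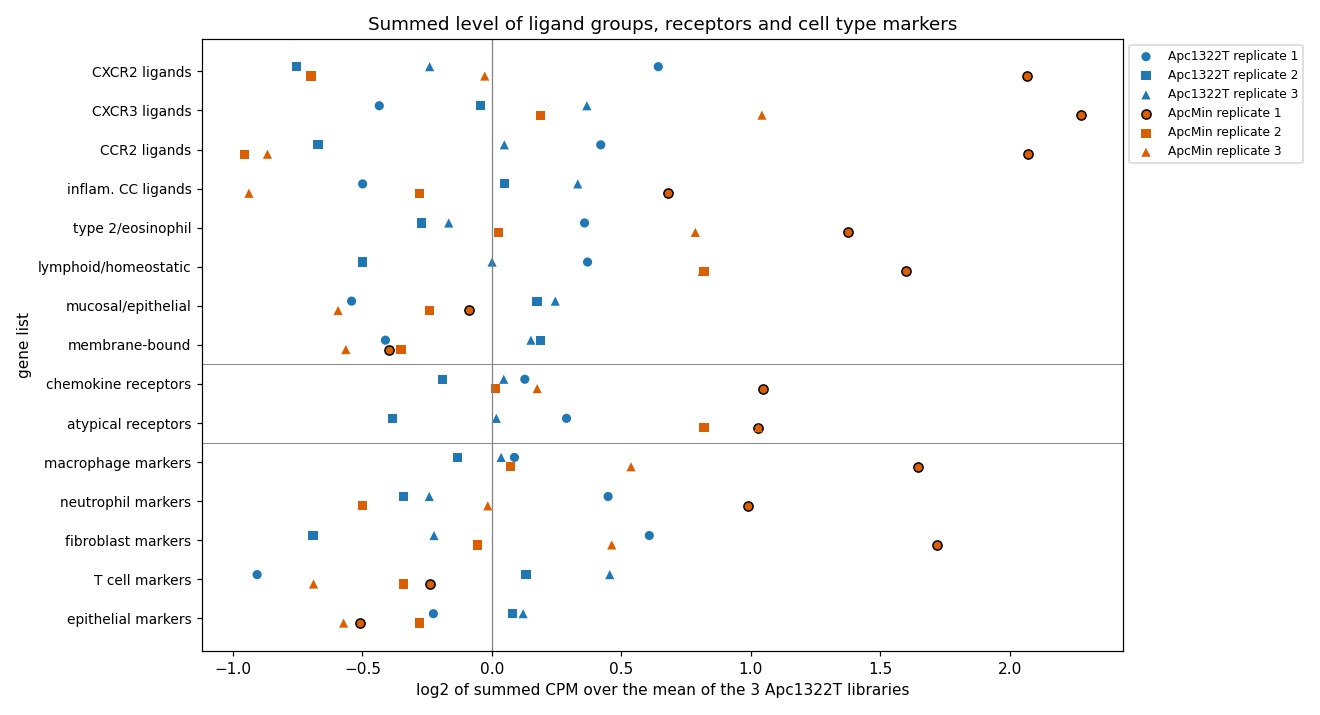
Summed CPM of each ligand group, of the receptors and of cell type marker lists in each library, as log2 ratio to the mean of the 3 Apc1322T libraries (vertical line at 0); blue points are Apc1322T, orange points ApcMin, and the black edge marks ApcMin replicate 1. That library is the highest for the CXCR2, CXCR3 and CCR2 ligands and for the macrophage, neutrophil and fibroblast markers, while the lymphoid and homeostatic ligands of all 3 ApcMin libraries lie above the Apc1322T libraries.

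Across libraries left out in turn, 3 members kept an unadjusted p under 0.05 each time. These were Cxcl13, Ccl21a and Ccl17 (9.09% of the tested members, beside 4.87% of all genes tested). Without Apc1322T replicate 2, they were the only 3 members at this level, where 6.85% of all genes were, and without Apc1322T replicate 3 there were 5, with Cxcl9 and the scaffold copy of Ccl21a added.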

How the data were processed

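RNA of intestinal adenomas was sequenced for 3 Apc1322T/+ and 3 ApcMin/+ libraries as single-end stranded reads on 1 lane. The authors quantified reads with Salmon on the GRCm38 transcriptome (GRCm38.p6 per the labels) and deposited estimated counts per gene, without normalisation; of the members' values, 30.5% were not whole within 0.001. Salmon divides reads that fit several transcripts, which affects near-identical copies of Ccl19, Ccl21 and Ccl27. Salmon and DESeq2 are named in the submitters' processing notes without versions.

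Counts were rounded. Symbols came from GENCODE M21 for 34652 of the 34866 genes. Of these 34866, filterByExpr of edgeR (minimum count 10, minimum total 15) kept 16536, which were normalised by TMM. The main test was the quasi-likelihood test (robust) in edgeR 4.0.16 under R 4.3.3, Benjamini-Hochberg adjusted, at 0.01, the threshold the authors used. SE was the log2 fold change over the root of F. A positive log2 fold change is higher in ApcMin. Log2 CPM used a prior count of 2. DESeq2 1.42.0, limma-voom (limma 3.58.1), other normalisations and filters, a replicate block and each library left out were the alternatives. Levels per kb used merged exons or the longest transcript. The procedure was tested on simulated counts.

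The gene lists and the chosen members were set with earlier results of these data known. Values in every library are given for the 12 members with the highest level per kb, for those at an unadjusted p under 0.05 or without overlap, and for the 5 with the largest SD within a genotype, along with their group and receptors. Further marker genes were picked from the lists after their values were seen. The labels do not say that libraries of a genotype came from different mice, so p-values measure the spread between these libraries. The lowest chi-square per gene between a pair of libraries was 23.3, so no library was a copy of another. Values of a receptor gene and a marker gene are not reported here.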

Additional observations from a re-analysis of the deposited data

How the results depend on the processing

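The adjusted p of every tested ligand stayed above 0.01 in all alternatives but 1. DESeq2's Wald test called 1 ligand at 0.01 and 3 at 0.05 (the latter counted after the data were seen), and 1 receptor, Ackr3. DESeq2 gave no p for Ccl7 and Cxcl3, and the cause was not tested. With libraries left out in turn, the count at an unadjusted p under 0.05 ran from 3 to 11. The 3 were without Apc1322T replicate 2, beside 6.85% of all genes, and the 11 without ApcMin replicate 2, beside 12.6%. There were 5 without Apc1322T replicate 3, beside 8.64%. The share of all genes at this level was largest without Apc1322T replicate 1, at 24.7%, where 6 members were higher in ApcMin and 4 lower. The members without overlap ran from 7 to 15 with fewer libraries to compare. There were 14 without Apc1322T replicate 1 (10 higher and 4 lower in ApcMin), beside 48.0% of all genes. Without ApcMin replicate 1 there were 15 (9 higher and 6 lower), beside 31.8%. The 7 without Apc1322T replicate 2 or 3 stood beside 25.1% and 28.2%. The median log2 fold change ran from -0.19 (without ApcMin replicate 1) to 1.05, and the median SD from 0.43 (without ApcMin replicate 1) to 0.69. Direction held in every alternative for 18 of the 33 ligands. The other 15 turned with a library left out: Ccl2 (-1.0 to 1.12), Ccl3 (-1.19 to 1.97), Ccl4 (-1.23 to 1.01), Ccl5 (-1.13 to 0.00), Ccl6 (-0.38 to 0.46), Ccl7 (-0.94 to 1.65), Ccl8 (-0.10 to 1.79), Ccl9 (-0.66 to 0.17), Ccl24 (-0.02 to 0.28), Ccl28 (-0.26 to 0.10), Cxcl1 (-0.21 to 1.63), Cxcl2 (-0.19 to 1.70), Cxcl3 (-0.89 to 2.00), Cxcl5 (-0.42 to 0.83) and Cxcl10 (-0.22 to 0.73). Ccl4 also turned with limma-voom (-0.01).

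Replicate numbers shared by the genotypes did not pair the libraries, as correlations of same-numbered deviations were -0.0139, 0.164 and -0.286. With the replicate number as a block, 0 ligands were called, the median log2 fold change was 0.45 and Ccl4 turned to -0.14. In that fit 9 ligands were at an unadjusted p under 0.05, and the share of all genes at this level is not given here. Depth left few counts for some members, with 5 to 67 per library for Cxcl13, 6 to 61 for Ccl17 and 0 to 8 for Ccl19. Counts of macrophage and epithelial markers without ApcMin replicate 1 were added after the data were seen.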
